A study of Sus scrofa with 6 samples.

Results

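Keratins and epithelial identity genes were followed in the endometrium, the inner lining of the uterus, of 6 Erhualian sows. The set was given as 10 gene symbols: the simple keratins KRT7, KRT8, KRT18 and KRT19, the surface adhesion protein EPCAM, the splicing regulator ESRP1 and the transcription factors GRHL2, ELF3, FOXA2 and PAX8. Members were found by matching the pig Ensembl identifiers of the deposited table to these symbols. Of the 10, 8 matched a row among the 14262 genes of the table, and KRT19 and PAX8 matched none and are not analysed here. Erhualian is a Chinese pig breed (Sus scrofa). By their labels the endometria came from 3 high prolific and 3 low prolific sows on day 12 of gestation, with 1 library a sow and no treatment in either group. The sows are called here high 1 to high 3 and low 1 to low 3, after the numbers in their titles. Parity, the count of litters a sow had borne, was 5, 8 and 8 in high 1 to high 3 and 7, 7 and 5 in low 1 to low 3. The series title sets litter size beside calcium ion concentration, and high against low prolific is the one comparison its labels state.

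The endometrium is built of a luminal epithelium facing the uterine cavity, glands that open into it, and a stroma of fibroblasts, vessels and immune cells. Keratins are the intermediate filament proteins of epithelial cells, and each filament is made of a type II keratin, such as KRT7 or KRT8, bound to a type I keratin, such as KRT18 or KRT19. KRT8 with KRT18 is the pair of simple, one-layered epithelia, and the desmosome ties their filaments to neighbouring cells. EPCAM is a glycoprotein of the epithelial cell surface, ESRP1 directs the epithelial form of many spliced messages, and GRHL2 keeps up genes of epithelial junctions. ELF3 is an epithelial member of the ETS factors, FOXA2 is needed for uterine glands in the mouse, and PAX8 marks epithelia derived from the Mullerian duct. In the pig, day 12 is when elongating conceptuses signal to this epithelium.

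All values are normalized read counts as deposited. They carry no correction for gene length, so levels are compared between sows within a gene and not between genes. Column sums differed by at most 1.07-fold between the 6 libraries, which the normalization sets, and the depth behind each value is unknown. On the first principal component of all genes (43.6% of the variance) low 2 and low 3 stood at 0.53 and 0.54, apart from the other 4 sows between -0.50 and -0.02. Both epithelial and stromal markers were measured in every sow. The 8 measured markers of epithelium summed to between 59501 and 83586 a sow, and those of stromal fibroblasts to between 507947 and 813388. The squamous markers KRT5, KRT14, TP63, KRT13, KRT4 and SPRR3 matched no row and are not analysed here, since 2285 of the 14262 rows carry no symbol. In these bulk samples, fewer cells of a type and less RNA per cell cannot be told apart.

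No member passed the test between groups. In limma's fit over all 14262 genes the 8 members had adjusted p-values between 0.633 and 0.967, and 0% of all genes passed at an adjusted p under 0.05. At an unadjusted p under 0.05 the members counted 0 of 8, against 7.92% of all genes (3.83% higher in high prolific sows, 4.09% lower). In all 8 members the ranges of the groups overlapped, while 13.5% of all genes had groups that did not (7.18% higher in high prolific sows, 6.32% lower). Of the members, 6 had a log2 fold change above 0 and 2 below, with a median of 0.24 beside -0.0024 for all genes. A log2 fold change here is the mean log2(value + 1) of the high prolific sows minus that of the low prolific sows.

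The keratins KRT7, KRT8 and KRT18 had higher means in high prolific sows, but the groups overlapped in each, and low 2 and low 3 had the lowest levels of all 3. KRT7, a type II keratin of ducts and glands, was at 2926, 6709 and 5019 in high 1 to high 3 and at 6150, 1566 and 1749 in low 1 to low 3. Low 1 lay with the upper high prolific sows, while low 2 and low 3 lay below all of these. The mean was 4885 ± 1895 (SD, n = 3) in high and 3155 ± 2595 in low prolific sows, a log2 fold change of 0.85 ± 0.58 (SE, 95% interval -0.55 to 2.25, adjusted p = 0.709 with limma). KRT7 spanned 4.28-fold over the 6 sows, and its pooled SD within groups was above that of 95.4% of all genes.

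KRT8, the type II keratin of simple epithelia, was at 19084, 27435 and 23245 in the high prolific sows and at 25335, 14061 and 11217 in the low prolific sows. As for KRT7, high 2 had the highest value, low 1 the next, and low 2 and low 3 the lowest. The means were 23254 ± 4175 and 16871 ± 7467 (SD, n = 3), with a log2 fold change of 0.54 ± 0.32 (SE, 95% interval -0.23 to 1.30, adjusted p = 0.683 with limma). KRT18, its type I partner, was at 5252, 5687 and 4726 against 6548, 3245 and 3059. Here low 1 had the highest value of all 6 sows, and the 3 high prolific sows lay within a narrow band between it and the other low prolific sows. The means were 5222 ± 482 and 4284 ± 1963, with a log2 fold change of 0.37 ± 0.30 (SE, 95% interval -0.35 to 1.09, adjusted p = 0.741 with limma). Reads of KRT8 and KRT18 may be shared with processed copies of these genes elsewhere in the genome, and how the counting treated such reads is not given in the sources used here.

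**Figure D1:**
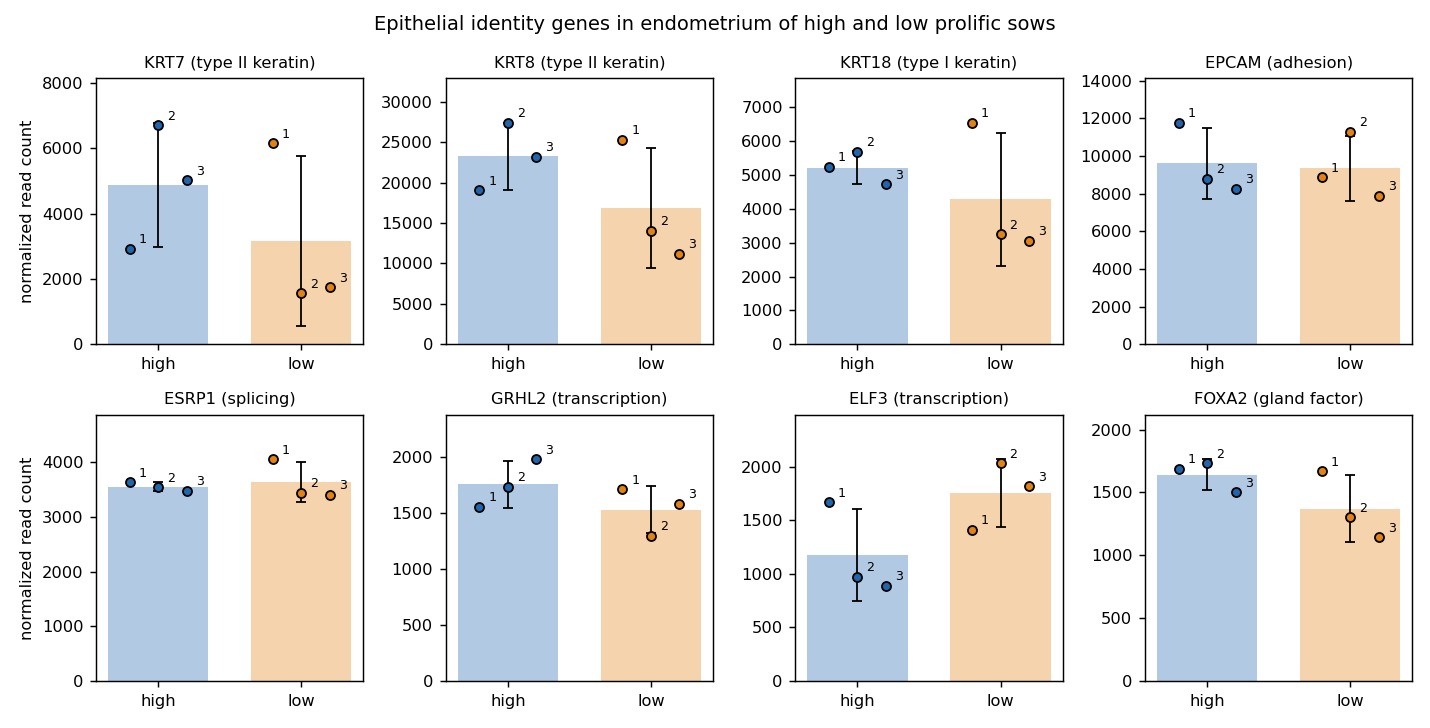
Normalized read counts (linear axes from 0) of the 8 measured members by group, high prolific in blue and low prolific in orange. A bar gives the mean of 3 sows with its SD, and each numbered point is 1 sow. KRT7, KRT8 and KRT18 are lowest in low 2 and low 3, and ESRP1 is between 3408 and 4053 in all 6 sows.

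The difference in the 3 keratins rested on low 2 and low 3, which held the lowest values of each. Leaving both out had to lower the difference, so the values without them restate these levels and are no separate test. With both left out, so that low 1 alone stood for its group and was assumed to vary as the others did, the log2 fold changes turned to -0.41 for KRT7, -0.14 for KRT8 and -0.33 for KRT18. Without low 1 they went up to 1.48, 0.87 and 0.72, with adjusted p-values of 0.214, 0.215 and 0.182, and 5 of the 8 members (these 3, ELF3 and FOXA2) then had an unadjusted p under 0.05, against 13.1% of all genes. Of its group, low 1 had the highest KRT7, KRT8, KRT18 and FOXA2 and the lowest ELF3. Leaving it out had to widen these differences, so that count also restates the levels and is no separate test.

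The partner keratins KRT8 and KRT18 kept their proportion more closely than their levels from sow to sow. The ratio of KRT8 to KRT18, which does not depend on how much epithelium a sample holds where both come from the same cells, was 3.63, 4.82 and 4.92 in high 1 to high 3 and 3.87, 4.33 and 3.67 in low 1 to low 3. It spanned 1.35-fold over the 6 sows, while KRT8 alone spanned 2.45-fold and KRT18 2.14-fold. The groups overlapped, at 4.46 ± 0.716 and 3.96 ± 0.342 (SD, n = 3, two-sided exact permutation p = 0.4, where 3 against 3 allows no p below 0.1). In the RefSeq annotation (assembly Sscrofa11.1) KRT8 and KRT18 are neighbours on chromosome 5 with 0 protein-coding genes between them, and KRT7 lies on the same chromosome with 28 between it and KRT8. KRT7 kept its proportion to KRT8 less closely than KRT18 did. The ratio of KRT7 to KRT8, chosen after the values were seen, was 0.153, 0.245 and 0.216 in the high prolific sows. In the low prolific sows it was 0.243, 0.111 and 0.156 (exact permutation p = 0.6). This ratio spanned 2.20-fold, which was still less than KRT7 alone at 4.28-fold and KRT8 alone at 2.45-fold. KRT7 was thus lowest relative to KRT8 in low 2, high 1 and low 3, and highest in high 2 and low 1.

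EPCAM and ESRP1, which mark the epithelial compartment without forming filaments, differed less between sows than the keratins, and low 2 was second highest in EPCAM. EPCAM was at 11765, 8789 and 8249 in the high prolific sows and at 8857, 11277 and 7896 in the low prolific sows. Its highest values came from high 1 and low 2, 1 sow of each group, and the values spanned 1.49-fold in all. The means were 9601 ± 1893 and 9343 ± 1742 (SD, n = 3), with a log2 fold change of 0.04 ± 0.20 (SE, adjusted p = 0.967 with limma). The 95% interval of -0.43 to 0.51 corresponds to 0.740-fold to 1.42-fold the level of low prolific sows. ESRP1 was at 3641, 3542 and 3479 against 4053, 3445 and 3408. Low 1 had the highest value, and the other 5 sows lay close together. It was the steadiest member, with a span of 1.19-fold and a pooled SD within groups that was below that of all but 12.8% of genes. Its log2 fold change was -0.03 ± 0.11 (SE, 95% interval -0.29 to 0.23, adjusted p = 0.954 with limma). The signs of these small EPCAM and ESRP1 values turned under other settings, EPCAM to -0.12 without high 1 and ESRP1 to 0.02 with columns scaled to the same sum.

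GRHL2 and FOXA2 both had higher means in high prolific sows, with overlap between the groups in each. GRHL2 was at 1556, 1735 and 1978 in the high prolific sows and at 1710, 1299 and 1582 in the low prolific sows. High 3 had the highest and low 2 the lowest value, and the other 4 sows lay mixed between them. The means were 1756 ± 212 and 1530 ± 211, with a log2 fold change of 0.20 ± 0.15 (SE, 95% interval -0.15 to 0.55, adjusted p = 0.722 with limma). Leaving out low 2 brought it to 0.09, leaving out high 3 to 0.11, and leaving out low 2 together with low 3 to 0.03. FOXA2, the gland factor, was at 1688, 1732 and 1502 against 1667, 1302 and 1146. Like the keratins it was lowest in low 2 and low 3, with low 1 among the high prolific sows. The means were 1641 ± 122 and 1371 ± 267, and the log2 fold change was 0.27 ± 0.16 (SE, 95% interval -0.11 to 0.65, adjusted p = 0.673 with limma). It turned to -0.03 without both low 2 and low 3.

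ELF3 was the member with the smallest unadjusted p (0.0585) and had a lower mean in high prolific sows. It was at 1666, 971 and 887 in high 1 to high 3 and at 1410, 2031 and 1814 in low 1 to low 3. High 1 lay among the low prolific sows, and high 2 and high 3, the sows of parity 8, lay below every other sow. Parity 8 occurred in this group alone, and for these sows it cannot be told apart from the group. The means were 1175 ± 427 and 1752 ± 315 (SD, n = 3), with a log2 fold change of -0.62 ± 0.27 (SE, 95% interval -1.27 to 0.03, adjusted p = 0.633 with limma). Over single sows left out the log2 fold change ranged from -0.90 (without high 1) to -0.45 (without high 3), and it was -0.32 without both low 2 and low 3, -0.48 with parity in the model and -0.68 with library weights. Leaving out high 1, ELF3 alone of the members had an unadjusted p under 0.05, as 8.86% of all genes did (adjusted p = 0.523 with limma). High 1 had the highest ELF3 of its group, so leaving it out had to widen the difference and is no separate test. With library weights ELF3 was again the 1 member at an unadjusted p under 0.05, beside 11.7% of all genes (adjusted p = 0.424 with limma).

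**Figure D2:**
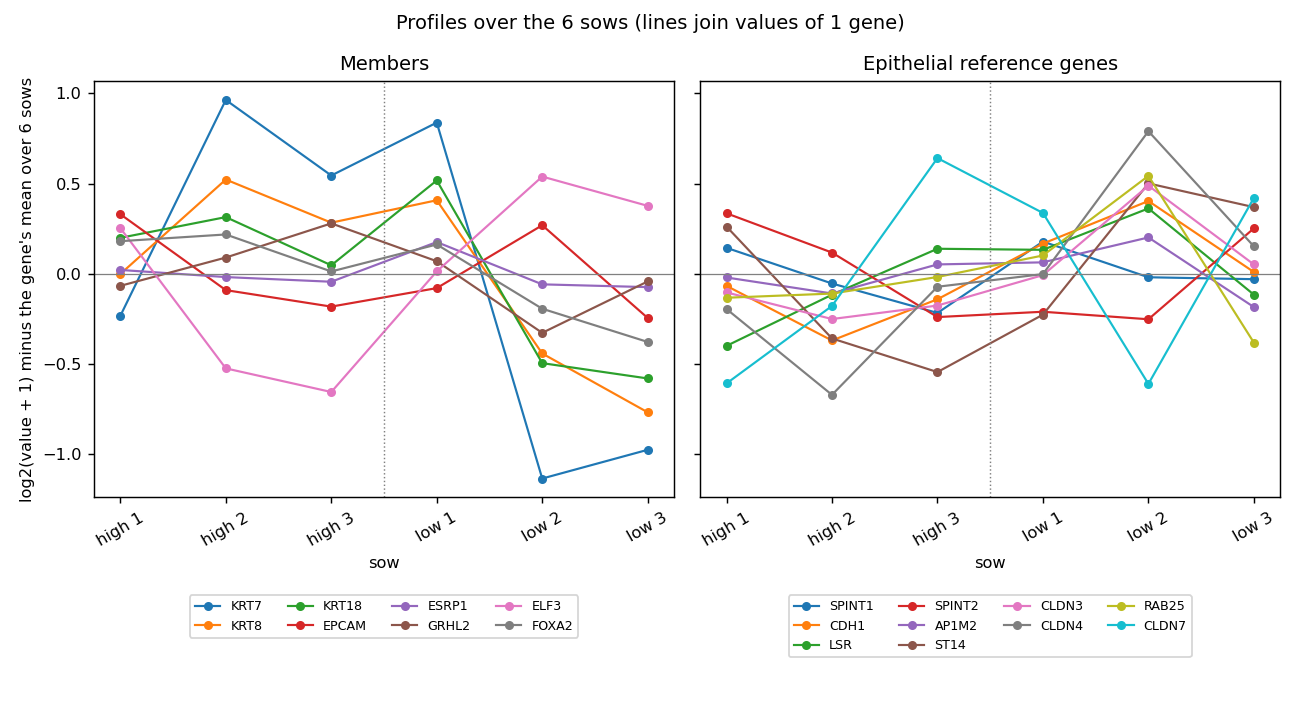
Log2(value + 1) of each gene minus its mean over the 6 sows, for the 8 members (left) and for 10 other epithelial genes (right). Lines join the values of 1 gene and show no order of sows. KRT7 reaches 0.96 in high 2 and -1.14 in low 2, while ELF3 is at -0.66 in high 3 and 0.54 in low 2.

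Across sows the members fell into unlike profiles. Likeness was measured as the root mean square difference between the centred log2 profiles of 2 genes over the 6 libraries, as a description without a test. The smallest difference between members was that of KRT8 with KRT18 at 0.178, followed by ESRP1 with FOXA2 at 0.180. KRT18 stood at 0.212 from FOXA2 and at 0.463 from EPCAM, and KRT7 stood farthest from ELF3, at 1.24. The Pearson correlation, which leaves out how far a gene varies, was highest for KRT7 with KRT8 (0.96). It was 0.95 for KRT18 with FOXA2, 0.93 for KRT8 with KRT18 and 0.61 for ESRP1 with FOXA2. Among the 11976 other genes with a symbol, the 2 nearest to KRT18 were SGPP1, a sphingosine-1-phosphate phosphatase (0.0728), and RXYLT1 (0.0992). SGPP1 was at 3332, 3082 and 2747 in high 1 to high 3 and at 3840, 2003 and 1853 in low 1 to low 3. The nearest to KRT8 were GFRA3 (0.109) and AP1S3 (0.116), to KRT7 ANGPTL1 (0.196) and IFI44, an interferon-induced gene (0.202), and to FOXA2 PDP2 (0.0441) and MRM1 (0.0476). The nearest to ELF3 were TEAD4, a transcription factor of the Hippo pathway (0.0934), and OTUB2 (0.0981). GRHL2 was nearest to PCDH1 (0.0390) and SYCE1 (0.0409), EPCAM to TCEAL9 (0.0550) and MRM2 (0.0681), and ESRP1 to ELOC (0.0230) and CCDC65 (0.0250). A member that varies little is close to many genes in this measure, so these distances do not rank members among each other.

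To set the members beside epithelium as such, each was taken relative to the mean log2 level of other epithelial genes: CDH1, CLDN3, CLDN4, CLDN7, RAB25, SPINT1, SPINT2, ST14, AP1M2 and LSR, 10 measured of 11 listed. This reference was itself lower in each high prolific sow than in any low prolific sow, by 0.23 log2 units on average (two-sided exact permutation p = 0.1, the smallest that 3 against 3 allows). Relative to it 7 members had a higher mean in high prolific sows, KRT7 by 2.12-fold, KRT8 by 1.70-fold, KRT18 by 1.52-fold, FOXA2 by 1.42-fold, GRHL2 by 1.35-fold, EPCAM by 1.21-fold and ESRP1 by 1.15-fold. ELF3 had a mean 1.31-fold lower. The lower reference enters each of these differences, and without it ESRP1 and EPCAM had log2 fold changes of -0.03 and 0.04. On this relative scale the groups overlapped in all 8 members, while 25.2% of all genes lay higher in high prolific sows without overlap. The share of genes lying lower, the direction of ELF3, was not counted. GRHL2 came close to separation, with centred values of 0.012, 0.30 and 0.34 in high 1 to high 3 against 0.016, -0.57 and -0.10 in low 1 to low 3. With a reference of only 4 genes (CDH1, CLDN3, CLDN4 and CLDN7) its groups no longer overlapped (log2 difference 0.57, exact permutation p = 0.1). The other members then had exact p-values between 0.2 and 0.6, and the share of all genes was not computed for that reference. CLDN7, which is in both references, was at 16.7, 22.8 and 41.1 in high 1 to high 3. In low 1 to low 3 it was at 33.1, 16.7 and 35.1, while the smallest mean of any gene in the table was 17.6. The values that follow are for the 10-gene reference. Over the 8 comparisons the exact p-values lay between 0.2 and 0.4, and the Benjamini-Hochberg adjusted values between 0.343 and 0.4, so none passed.

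The keratins were lowest relative to the reference in low 2 and low 3. These sows stood at -1.38 and -1.03 log2 units for KRT7, at -0.68 and -0.82 for KRT8 and at -0.74 and -0.63 for KRT18, each centred on the gene's mean. High 2 had the highest value in each, at 1.17, 0.73 and 0.52. Low 1 stood at 0.78, 0.35 and 0.46 in these genes, beside the high prolific sows. Without both low 2 and low 3 the relative log2 differences turned to -0.24 for KRT7 and -0.16 for KRT18, and the difference was 0.03 for KRT8. FOXA2 over EPCAM, a ratio of gland factor to pan-epithelial gene, was 0.143, 0.197 and 0.182 in high 1 to high 3 and 0.188, 0.115 and 0.145 in low 1 to low 3. The groups overlapped (0.174 ± 0.0277 and 0.150 ± 0.0366, SD, n = 3, exact permutation p = 0.5), and the log2 difference of 0.24 turned to -0.12 without both low 2 and low 3.

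**Figure D3:**
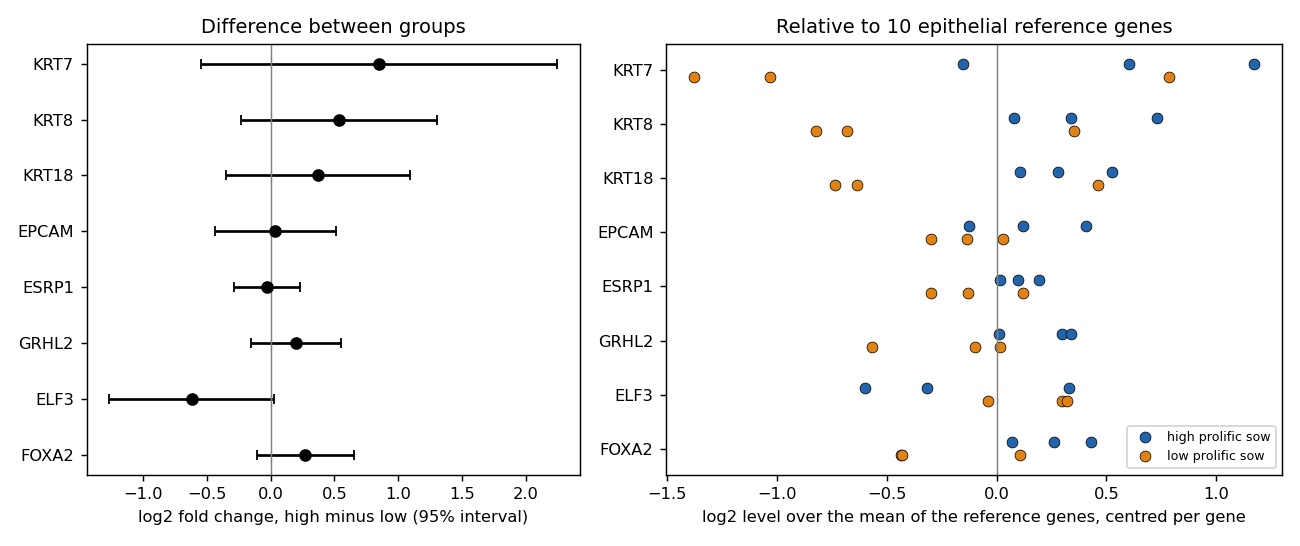
Left, log2 fold changes of the 8 members with 95% intervals from limma, each of which holds 0. Right, log2 level of each member over the mean of 10 epithelial reference genes, centred on its mean over the 6 sows, with high prolific sows in blue and low prolific sows in orange. The groups overlap in all 8 members.

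Of 24 listed genes of other keratins, which included the keratinocyte-associated KRTCAP2 and KRTCAP3, 7 matched a row and the others are not analysed here. Of the 7, 2 had a higher and 5 a lower mean log2 level in high prolific sows (median log2 fold change -0.13), and 0 passed at an unadjusted p under 0.05. KRT23, a type I keratin, was at 5.27, 25.2 and 5.82 in the high prolific sows and at 9.39, 393 and 151 in the low prolific sows (log2 fold change -3.04 ± 1.37, SE, adjusted p = 0.637 with limma). Low 2 and low 3, lowest in KRT7, KRT8 and KRT18, were thus highest in KRT23, while low 1 lay among the high prolific sows. KRT24 was at 17.4 ± 3.01 and 26.9 ± 1.80 (SD, n = 3) without overlap between groups, and the smallest mean of any gene in the table was 17.6. KRTCAP2 (481 ± 26.5 and 526 ± 41.8) and KRTCAP3 (122 ± 32.2 and 98.6 ± 17.4) overlapped between groups.

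Of 20 genes of keratin anchors and the desmosome 14 were measured, 8 with a higher and 6 with a lower mean log2 level in high prolific sows (median 0.12), and 1 had an unadjusted p under 0.05. This was CDH1, E-cadherin, the adhesion molecule of epithelial junctions, at 18895, 15318 and 17948 in the high and 22226, 26177 and 19927 in the low prolific sows. Every high prolific sow lay below every low prolific sow, and the log2 fold change was -0.39 ± 0.15 (SE, unadjusted p = 0.0420, adjusted p = 0.629 with limma). FAM83H, which organizes keratin filaments, was at 2806 ± 282 and 2403 ± 239. The plakophilin PKP4 was at 1472 ± 86.8 and 1855 ± 425, and the desmosomal cadherin DSG2 at 2167 ± 170 and 1912 ± 162 (SD, n = 3), with adjusted p-values from 0.666 to 0.689.

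Of 24 other epithelial transcription and splicing factors 17 were measured, 9 with a higher and 8 with a lower mean log2 level (median 0.01), and 0 passed the adjusted test. At an unadjusted p under 0.05 there were 3. PAX2, a paralogue of PAX8 and likewise a factor of Mullerian epithelium, was at 6428, 8737 and 8818 in high 1 to high 3 and at 6805, 3334 and 3091 in low 1 to low 3. Low 2 and low 3 again lay below all other sows, and low 1 lay just above high 1 (log2 fold change 0.94 ± 0.32, SE, unadjusted p = 0.0252, adjusted p = 0.619 with limma). KLF4, a factor of epithelial differentiation, was at 1518 ± 70.3 and 1248 ± 120, and KLF5, a factor of epithelial growth, lay the other way at 8752 ± 1872 and 12685 ± 2453 (SD, n = 3). The groups did not overlap in either, with adjusted p-values of 0.623 and 0.629. ELF5, an ETS factor related to ELF3, was at 41.6, 42.4 and 39.1 against 116, 60.6 and 43.5.

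Genes known as targets of GRHL2 or ESRP1 were taken as a list of 11, all measured, of which EPCAM is a member. Of the other 10, 2 had a higher and 8 a lower mean log2 level in high prolific sows (median -0.27). GRHL2 itself had a log2 fold change of 0.20, and whether these genes follow it was not tested. CDH1, CLDN4, RAB25, ST14 and SPINT1 of this list also stand in the epithelial reference. CDH1 and the claudin CLDN4, both known GRHL2 targets, had an unadjusted p under 0.05. CLDN4, a tight junction protein, was at 7148, 5140 and 7787 against 8175, 14154 and 9094, with no overlap and the highest value in low 2 (log2 fold change -0.63 ± 0.26, SE, adjusted p = 0.629 with limma). CD44, a hyaluronan receptor whose splicing ESRP1 directs, was at 2336 ± 378 and 1666 ± 426, and ENAH, an actin regulator with an epithelial splice form, at 3122 ± 118 and 4101 ± 942 (SD, n = 3). Gene-level counts do not separate splice forms. CLDN3 of the reference lay like CLDN4, at 5574 ± 285 and 7206 ± 1414 without overlap.

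**Figure D4:**
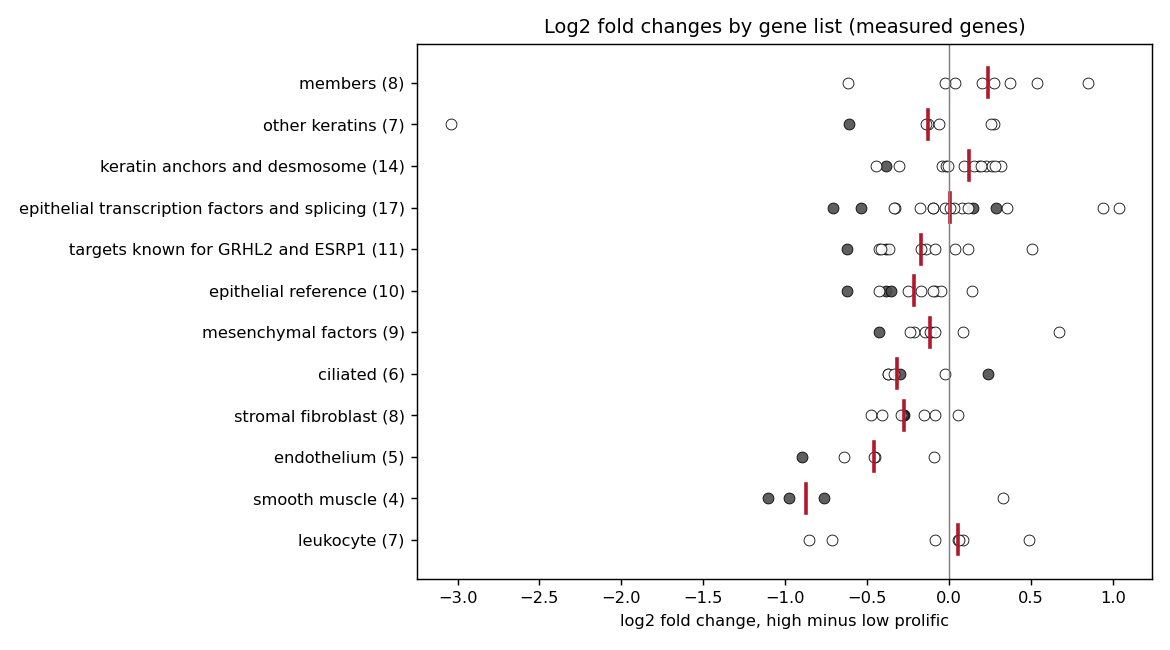
Log2 fold changes (high minus low prolific) of every measured gene in the member set and 11 lists, with the number of genes in brackets. Filled points are genes whose groups do not overlap and red bars are medians, 0.24 for the members and -0.21 for the epithelial reference; some genes, such as CDH1, stand in several lists.

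Of 11 listed mesenchymal genes, some of which are factors that oppose the epithelial programme, 9 were measured. Of these, 2 had a higher and 7 a lower mean log2 level in high prolific sows (median -0.12), and 0 had an unadjusted p under 0.05. PRRX1, a mesenchymal homeobox factor, was at 631 ± 58.7 and 869 ± 242 without overlap. CDH2, N-cadherin, was at 162 ± 89.9 and 102 ± 64.6, TCF4 at 2143 ± 126 and 2539 ± 702 and TWIST2 at 225 ± 72.6 and 266 ± 80.2 (SD, n = 3), each with overlap.

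Markers of other cell types moved with the sows in several lists. The 8 stromal fibroblast markers, all measured, summed to between 507947 and 692882 in high and between 601230 and 813388 in low prolific sows, with the 2 highest sums in low 2 and low 3 (median log2 fold change -0.28). The collagens COL1A1, COL1A2 and COL3A1 made up most of each sum. Of the other markers DCN, VIM and PDGFRA were lower in low 2 than in high 1, and LUM and PDGFRB were higher. The 5 measured of 6 endothelial markers summed to between 8443 and 13249 against 11214 and 20799 (median -0.46), and PECAM1, an adhesion molecule of endothelium, did not overlap between groups at 2740 ± 428 and 5133 ± 1102. The 4 measured of 5 smooth muscle markers summed to between 17574 and 25067 against 16542 and 25325, and 3 of them, ACTA2, DES and CNN1, were lower in high prolific sows without overlap (list median -0.87). ACTA2, smooth muscle actin, was at 4131 ± 1212 and 7997 ± 1778 (SD, n = 3). MYH11, smooth muscle myosin and the largest part of the sum, had a higher mean in high prolific sows, at 15670 ± 5474 and 12638 ± 4651, with overlap. The 7 leukocyte markers summed to between 3287 and 4274 against 3673 and 5461. Of 4 neutrophil markers 3 were measured, and they summed to 12991 in low 2 and 16338 in low 3 and to between 108 and 1679 in the other 4 sows, setting apart the sows lowest in KRT7, KRT8 and KRT18. This split came from S100A8 and S100A12. The third, CSF3R, a receptor of neutrophils, was at 385, 102 and 152 in high 1 to high 3 and at 168, 44.3 and 199 in low 1 to low 3, lowest in low 2. The 6 measured of 7 markers of ciliated epithelium summed to between 4769 and 6201 against 5563 and 5956, and 5 of them had a lower mean log2 level in high prolific sows. Of the 4 mesothelial markers WT1 alone was measured, at 838 ± 39.9 and 668 ± 197, of the 6 trophoblast markers ELF5 alone, and of 3 red blood cell markers 2, which summed to between 624 and 2523 against 1691 and 7972. The part of these cell types in the levels of the members was not tested.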

How the data were processed

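Endometrial RNA of 6 sows was sequenced, and 1 table of genes by libraries was deposited. Its values are a signal, normalized read counts that the authors made and deposited, not whole numbers. Per the submitters' processing notes Subread 1.6, featureCounts and edgeR were used, with no role stated. The build, annotation, strand setting and kind of normalization are not given in the sources used here. Every gene held at least 10 in at least 3 libraries as deposited, so that filter removed 0 genes. The low values were not whole multiples of 1 step, so count models were not used. Symbols were matched for 11977 of 14262 identifiers. The test between groups was limma's (version 3.58.1, R 4.3.3), two-sided, on values increased by a pseudocount of 1 and taken to log2, using a variance trend and robust moderation and adjusted by Benjamini-Hochberg over all genes. The procedure was checked on simulated data in which each gene varied independently, so variation shared by many genes of a sow was not covered. Ratios and relative levels were compared by exact two-sided permutation over the 20 assignments of sows. All members were named, with at most 4 genes a list by p and the 2 nearest profiles of each member. Other genes were chosen after their values were seen. A gene planned for the epithelial reference is not reported here and was left out of it. The members and lists were chosen with earlier results of these data known. Alternatives were the pseudocount, filter, scaling, moderation, weights, parity, the replicate block, leaving out sows and, for relative levels, a reference of 4 genes.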

Additional observations from a re-analysis of the deposited data

How the results depend on the processing

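Over 19 alternatives no member passed an adjusted p under 0.05. Leaving out single sows, the number of genes past it ranged from 0 to 4 (4 without low 1, 1 without low 2). The sign of ELF3 and GRHL2 held in these alternatives, while GRHL2 fell from 0.20 to 0.087 without low 2 and to 0.031 without both low 2 and low 3. At an unadjusted p under 0.05 the members counted 5 without low 1, and 1 (ELF3) without high 1 and with library weights. Of all genes, 13.1% were under it without low 1, 8.86% without high 1 and 11.7% with library weights. Leaving out low 1 had to widen the differences of those 5 members, and leaving out high 1 that of ELF3. The counts without these sows are thus no separate test. EPCAM turned with library weights (-0.054) and ranged from -0.12 (without high 1) to 0.18 over single sows left out. ESRP1 turned with columns scaled to the same sum (0.017) and ranged from -0.072 to 0.053 over single sows left out. With low 2 and low 3 both left out, log2 fold changes turned to -0.41 (KRT7), -0.14 (KRT8), -0.33 (KRT18) and -0.025 (FOXA2), FOXA2 over EPCAM to -0.12, and the levels relative to the reference to -0.24 (KRT7), -0.16 (KRT18) and -0.021 (ESRP1), where low 1 alone stood for its group. These alternatives for ratios and relative levels, and the ratio of KRT7 to KRT8, were chosen after seeing the data. For the keratins and FOXA2 they left out the sows with the lowest values, so these turns restate the levels and are no separate test. The count of genes at an unadjusted p under 0.05 was 1129 as reported. It was 466 when high 2 was left out, 632 for low 2, 631 for low 2 together with low 3, and 1872 for low 1. With the replicate block it was 615. Same-numbered sows did not deviate together (correlations of -0.38, -0.16 and -0.36 across genes), and the block called no member. Taken from deviations from the means of 3 sows a group, these correlations cannot exclude a pairing of the sows. The depth is unknown, so the error of low values such as KRT23, KRT24 and CLDN7 cannot be given.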
